A study of Mus musculus with 33 samples.

Results

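The genes described here are the 39 aminoacyl-tRNA synthetase genes and associated scaffold genes of the mouse, chosen by symbol from the 54752 genes listed for these libraries. They comprise 20 genes of cytosolic enzymes, 16 genes of mitochondrial enzymes, whose symbols end in 2, and 3 genes of the proteins that hold the multi-synthetase complex together (Aimp1, Aimp2 and Eef1e1). All 39 were found by their gene identifiers in the forebrain, hippocampus RNA and hippocampus footprint data, and all 39 passed the filter on low counts in each of the 11 comparisons. The choice used no measured value. Earlier results of these data were known when the genes were chosen.

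All mice were 8 weeks old, and the groups differ in n-Tr20, which encodes an arginine tRNA of the central nervous system. Forebrain RNA was sequenced from 5 groups of 4 mice: C57BL/6NJ (B6N) with wild-type n-Tr20, B6N lacking n-Tr20 (n-Tr20 -/-, the B6N knockout), C57BL/6J (B6J), B6J carrying a transgene with the B6N form of n-Tr20 (B6J transgenic), and B6J lacking n-Tr20 (the B6J knockout). Hippocampus RNA and hippocampus ribosome footprints were sequenced from 3 samples each of B6N and B6N knockout. The labels call B6J hypomorphic for n-Tr20. The transgenic group differs from B6J by the added B6N copy, and the B6J knockout lacks the gene. No source used here names the founder line or regulatory sequence of the transgene. The tRNA itself was not analysed here, so the knockout labels had no direct check. The 4 B6J knockout libraries were sequenced in batch 2 and the other forebrain groups in batch 1, with transgenic mouse 4 sequenced in both. The hippocampus labels name the strain C57BL/6NJ, whereas the hippocampus RNA column headers name B6JN. Where nothing more than a replicate number separates samples, p-values measure only the spread between them, which may be technical.

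Aminoacyl-tRNA synthetases join each amino acid to its matching tRNAs, the step that fixes the genetic code before translation. Most cells keep separate enzymes for the cytosol and for mitochondria, while Gars and Kars each encode both forms. Several cytosolic enzymes sit in the multi-synthetase complex, and many cytosolic synthetase genes are known targets of ATF4, a transcription factor that the integrated stress response brings up when ribosomes stall or amino acids run short. Mutations in synthetase genes cause peripheral neuropathies and leukoencephalopathies, so their expression in nervous tissue has been studied closely.

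Totals ran from 14.7 to 38.5 M (1000000) estimated counts per forebrain library, from 35.8 to 60.4 M counts in hippocampus RNA and from 7.6 to 17.9 M counts in footprints. The lowest count of any of the 39 genes in any library was 81 in forebrain, 280 in hippocampus RNA and 41 in footprints. All 5 neuron markers were detected in every library, with summed levels of 2630 to 3060 counts per 1000000 (CPM, on TMM-scaled library sizes) in forebrain, and the 5 hippocampus markers summed to 1050 to 1450 CPM in hippocampus RNA against 292 to 385 CPM in forebrain. By Xist and the Y-linked genes, B6J knockouts 1 to 3 were female and the other forebrain libraries male. Hippocampus RNA knockout 1 was female, while the footprint library of the same number held Y-linked RNA (Ddx3y 45.5 CPM, against 67.0 to 107 CPM in the other footprint libraries). The 8 choroid plexus markers summed to 393 to 559 CPM in the B6J knockout and 15.2 to 66.8 CPM in the transgenic libraries. They ranged from 10.7 to 480 CPM in the other 3 forebrain groups, from 84.3 to 4110 CPM in hippocampus RNA and from 6030 to 18400 CPM in footprints. In bulk tissue, fewer cells of a type and less RNA per cell cannot be told apart.

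Promoter sequences were compared first, because many of the cytosolic genes are described as direct targets of ATF4. RefSeq promoter windows (GRCm38.p6, 250 bases before to 50 after the annotated start) were found for 30 of the 39 genes, and Cars, Hars, Lars, Nars, Rars, Vars, Wars, Hars2 and Pars2 were not among them. The windows were searched on both strands for the C/EBP-ATF composite element, spelled TGATGNAAN, and for the narrower TGATGCAAN and TGATGCAAT, each of which is contained in the spelling before it. Of the 13 cytosolic genes with a window, 5 held TGATGNAAN, compared with 0 of 14 mitochondrial genes and 0 of 3 scaffold genes. It was held by 4.5% of all 27025 genes with a window, and by 3.95% of all 32851 windows. TGATGCAAN was found in 4 of the 13, in 1.02% of all genes with a window and in 0.889% of all windows. TGATGCAAT was found in 2 of the 13, Aars and Iars, in 0.222% of all genes and in 0.192% of all windows. All 5 genes belong to a list of 12 cytosolic synthetases known as ATF4 targets, of which 8 had a window. The other 3, Eprs, Mars and Sars, held no match, which says only that these letters are not in the window. A match is a run of letters and no proof of binding. The 5 windows are printed 5′ to 3′ on the strand of the gene, with matches to TGATGNAAN on either strand in capitals, because they are the windows that hold the matches just counted:
Aars promoter, GRCm38.p6 chr8:111033592-111033891, plus strand: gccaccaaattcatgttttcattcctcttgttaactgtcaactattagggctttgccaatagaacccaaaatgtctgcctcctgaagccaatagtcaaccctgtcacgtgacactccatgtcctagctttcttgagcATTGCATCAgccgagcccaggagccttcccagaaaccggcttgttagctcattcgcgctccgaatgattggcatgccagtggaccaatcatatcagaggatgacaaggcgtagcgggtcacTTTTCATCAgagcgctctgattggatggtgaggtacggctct
Gars promoter, GRCm38.p6 chr6:55037751-55038050, plus strand: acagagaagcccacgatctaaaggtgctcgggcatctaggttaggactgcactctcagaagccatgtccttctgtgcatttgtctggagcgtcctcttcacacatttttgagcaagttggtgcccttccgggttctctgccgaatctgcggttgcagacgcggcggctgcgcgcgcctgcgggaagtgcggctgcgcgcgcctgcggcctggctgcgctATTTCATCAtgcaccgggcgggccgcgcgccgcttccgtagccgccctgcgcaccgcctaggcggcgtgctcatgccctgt
Iars promoter, GRCm38.p6 chr13:49681880-49682179, plus strand: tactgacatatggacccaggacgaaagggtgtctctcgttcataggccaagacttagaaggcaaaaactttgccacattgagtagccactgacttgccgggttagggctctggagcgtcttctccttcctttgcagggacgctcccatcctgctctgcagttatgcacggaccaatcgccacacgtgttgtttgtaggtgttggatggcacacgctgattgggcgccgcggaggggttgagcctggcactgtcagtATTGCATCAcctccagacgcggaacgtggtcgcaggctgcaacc
Tars promoter, GRCm38.p6 chr15:11399609-11399908, minus strand: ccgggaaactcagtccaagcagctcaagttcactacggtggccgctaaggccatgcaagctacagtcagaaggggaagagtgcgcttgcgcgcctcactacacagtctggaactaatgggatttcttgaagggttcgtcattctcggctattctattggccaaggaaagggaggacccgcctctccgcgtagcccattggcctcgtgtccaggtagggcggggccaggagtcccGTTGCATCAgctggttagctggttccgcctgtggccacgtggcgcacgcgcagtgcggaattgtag
Yars promoter, GRCm38.p6 chr4:129189653-129189952, plus strand: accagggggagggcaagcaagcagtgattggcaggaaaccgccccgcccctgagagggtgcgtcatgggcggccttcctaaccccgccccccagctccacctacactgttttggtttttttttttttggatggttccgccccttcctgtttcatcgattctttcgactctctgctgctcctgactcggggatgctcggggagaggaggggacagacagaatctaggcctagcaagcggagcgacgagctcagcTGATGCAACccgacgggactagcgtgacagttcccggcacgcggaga
Counted to the leftmost base on the strand of the gene, with the annotated start as base 1, matches lay between 113 bases before the start and base 9. Aars held 2, of which TGATGCAAT began 113 bases before the start on the opposite strand. In Gars the match was TGATGAAAT, 31 bases before the start on the opposite strand. Tars and Yars held TGATGCAAC, 16 bases before the start on the opposite strand and at base 4 on the strand of the gene, and Iars held TGATGCAAT at base 7 on the opposite strand.

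Levels per unit of transcript length showed how the cytosolic and mitochondrial enzymes differ in forebrain. In B6N forebrain the cytosolic genes had a median of 13.7 transcripts per 1000000 (TPM), the mitochondrial genes 4.5 and the scaffolds 6.34. The highest cytosolic levels were those of Sars (33.0 ± 1.99 TPM, SD, n = 4) and Nars (30.6 ± 1.31), the serine and asparagine enzymes, followed by Gars (19.7 ± 0.574) and Hars (19.3 ± 0.893), the glycine and histidine enzymes. Sars and Nars differed by less than the sum of their SDs, as did Gars and Hars. Vars, the valine enzyme, was the lowest cytosolic gene (4.17 ± 0.374 TPM).

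Apart from Lars2, the mitochondrial genes ran from Ears2, the glutamate enzyme (1.18 ± 0.239 TPM), to Fars2, the phenylalanine enzyme (10.4 ± 1.33). Of 13 amino acids with a gene for each compartment, the cytosolic gene was higher in all 4 B6N mice for 9, by 1.58-fold for arginine (Rars 13.3 and Rars2 8.46 TPM) to 18.6-fold for serine (Sars 33.0 and Sars2 1.79 TPM). The isoleucine, threonine and valine pairs overlapped between the mice. These levels sum all annotated transcripts of a gene, including those not annotated as coding. In B6N the leading coding transcript was assigned 66.6% of the TPM of Rars (Rars-201) and 52.9% of that of Rars2 (Rars2-201). The scaffold Aimp1 (15 TPM) was above Aimp2 (6.34) and Eef1e1 (4.78), the adaptor proteins p43, p38 and p18 of the complex.

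**Figure D1:**
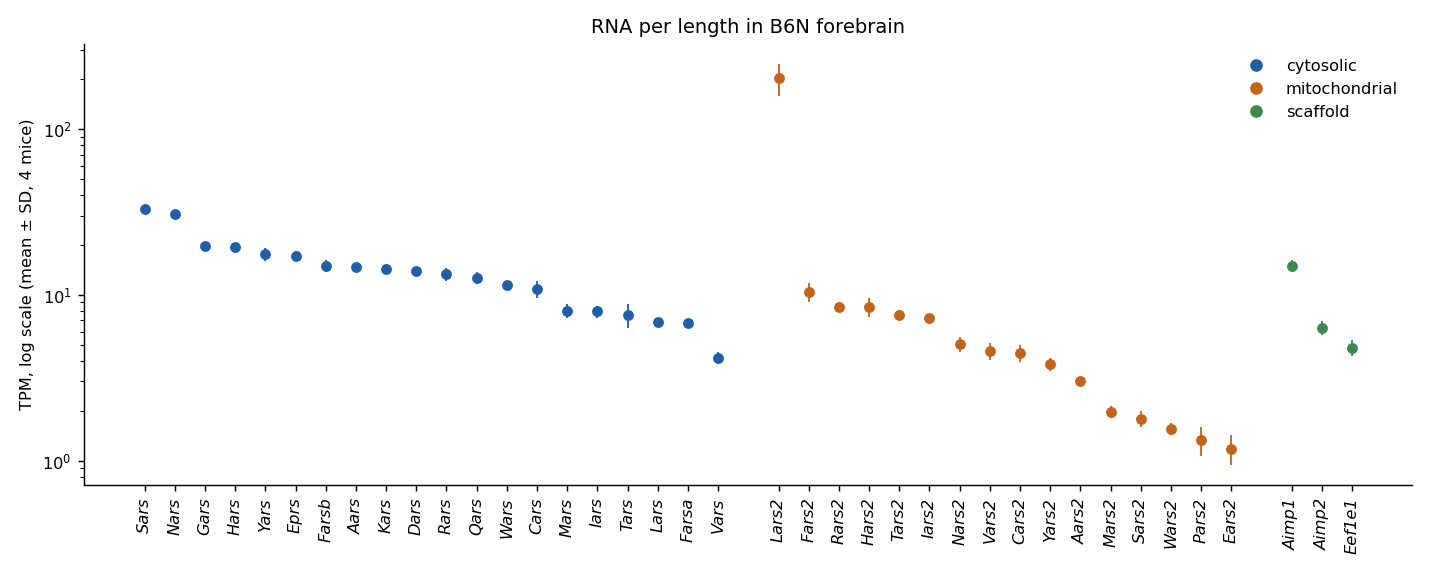
RNA per transcript length in B6N forebrain, as TPM on a log axis, for each cytosolic, mitochondrial and scaffold gene; points are means of 4 mice and bars are SD. The cytosolic points run from 4.17 to 33.0 TPM and the mitochondrial points other than Lars2 from 1.18 to 10.4 TPM.

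Lars2, the mitochondrial leucine enzyme, stood apart at 202 ± 44.7 TPM, and its RNA level is uncertain. In B6N, 97.9% of its TPM was assigned to Lars2-209, a transcript of 3756 bases annotated as subject to nonsense-mediated decay. Across the 20 forebrain mice Lars2 ran from 632 to 5350 CPM and followed mt-Rnr2, the large mitochondrial ribosomal RNA, which ran from 55100 to 91300 CPM (Pearson r = 0.84, Spearman rho = 0.72 over 20 libraries). B6J knockouts 1 and 2 were high in both, with 2380 and 5350 CPM of Lars2. Without them r was 0.73 and rho 0.62 over 18 libraries.

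In hippocampus, where RNA was selected by its poly(A) tail, Lars2 ran from 91.7 to 505 CPM and did not follow mt-Rnr2 in the same direction (rho = -0.54 over 6 libraries). Its footprints lay between 18.5 and 34.4 CPM. The part of ribosomal RNA in the Lars2 counts was not tested. Lars2 was called in none of the 11 comparisons, but medians and counts over the 16 mitochondrial genes include it.

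**Figure D2:**
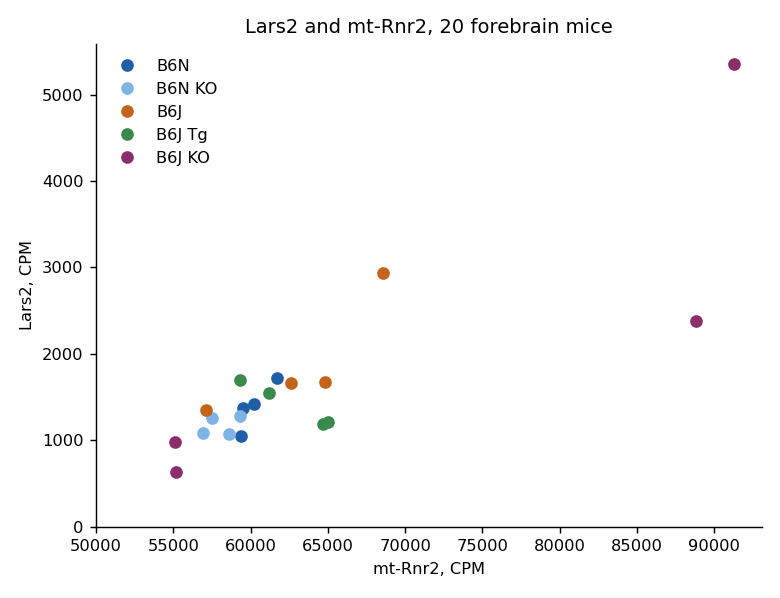
Lars2 against mt-Rnr2 in the 20 forebrain mice, both in CPM, coloured by group. The points of B6J knockouts 1 and 2 lie at the right, at 88800 and 91300 CPM of mt-Rnr2.

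The question of the first comparison was how these genes differ when n-Tr20 is lost on the B6N background. Of the 39 genes, 12 rose and 1 fell in the B6N knockout forebrain, compared with 1.91% of 25151 genes called in either direction, 1.11% higher and 0.807% lower (quasi-likelihood test of edgeR, p adjusted over all genes by Benjamini-Hochberg, threshold 0.05). All 12 that rose were cytosolic enzymes, and they were the 12 of the ATF4 list. That list was chosen with earlier results of these data known, so it is not independent evidence of their direction. The median log2 fold change was 0.17 over the 20 cytosolic genes, 0.06 over the 16 mitochondrial genes and 0.06 over the 3 scaffolds, against 0.00 over all genes tested.

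Cars (ENSMUSG00000010755.17, chromosome 7 from 143557230 to 143600090 in GRCm38.p6), the cysteine enzyme, had the largest difference. It stood at 31.2, 30.7, 30.7 and 32.0 CPM in B6N and 42.5, 46.2, 45 and 41.3 CPM in the knockout, so that every knockout library was above every B6N library. The log2 fold change was 0.49 ± 0.05 (SE, adjusted p = 8.45e-08), or 1.40-fold.

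Nars, the asparagine enzyme, was at 126, 131, 136 and 129 CPM in B6N and 171, 173, 166 and 158 CPM in the knockout (log2 fold change 0.35 ± 0.04, adjusted p = 5.72e-07). Gars, the glycine enzyme of both compartments, was at 72.9, 78.8, 77.8 and 73.2 CPM and 97.4, 97.9, 95.0 and 88.0 CPM (0.32 ± 0.04, adjusted p = 1.27e-05). Mars, the methionine enzyme, was at 31.7, 31.9, 32.2 and 32.6 CPM and 39.2, 40.9, 43.0 and 37.5 CPM (0.32 ± 0.05, adjusted p = 0.00032). None of these 3 genes overlapped between the genotypes.

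Yars, the tyrosine enzyme, was at 60.5, 61.0, 62.2 and 59.0 CPM in B6N and 73.5, 78.8, 74.5 and 72.3 CPM in the knockout (0.30 ± 0.04, adjusted p = 1.27e-05). Sars was at 108, 107, 108 and 107 CPM and 128, 136, 131 and 124 CPM (0.27 ± 0.04, adjusted p = 1.93e-05). Iars, the isoleucine enzyme, was at 41.0, 39.9, 42.7 and 42.5 CPM and 50.8, 49.3, 49.3 and 47.4 CPM (0.24 ± 0.04, adjusted p = 0.00157). These 3 also had every knockout library above every B6N library.

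Tars, Lars, Aars, Wars and Eprs, the enzymes of threonine, leucine, alanine, tryptophan and of glutamate with proline, rose by less, with log2 fold changes of 0.21, 0.19, 0.17, 0.17 and 0.14. Leaving out 1 library ended the call of Eprs in 7 of 8 fits, of Wars in 5, of Tars in 3 and of Aars and Lars in 2 each, and the count of genes called was lowest, at 9, without B6N knockout 3. With an offset for average transcript length, 7 genes were called, Cars, Gars, Iars, Nars, Sars and Yars higher and Hars lower, and 174 of all genes. In 17 of the 39 genes every knockout library was above every B6N library and in 3 every one was below, compared with 4.62% and 3.98% of all genes.

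**Figure D3:**
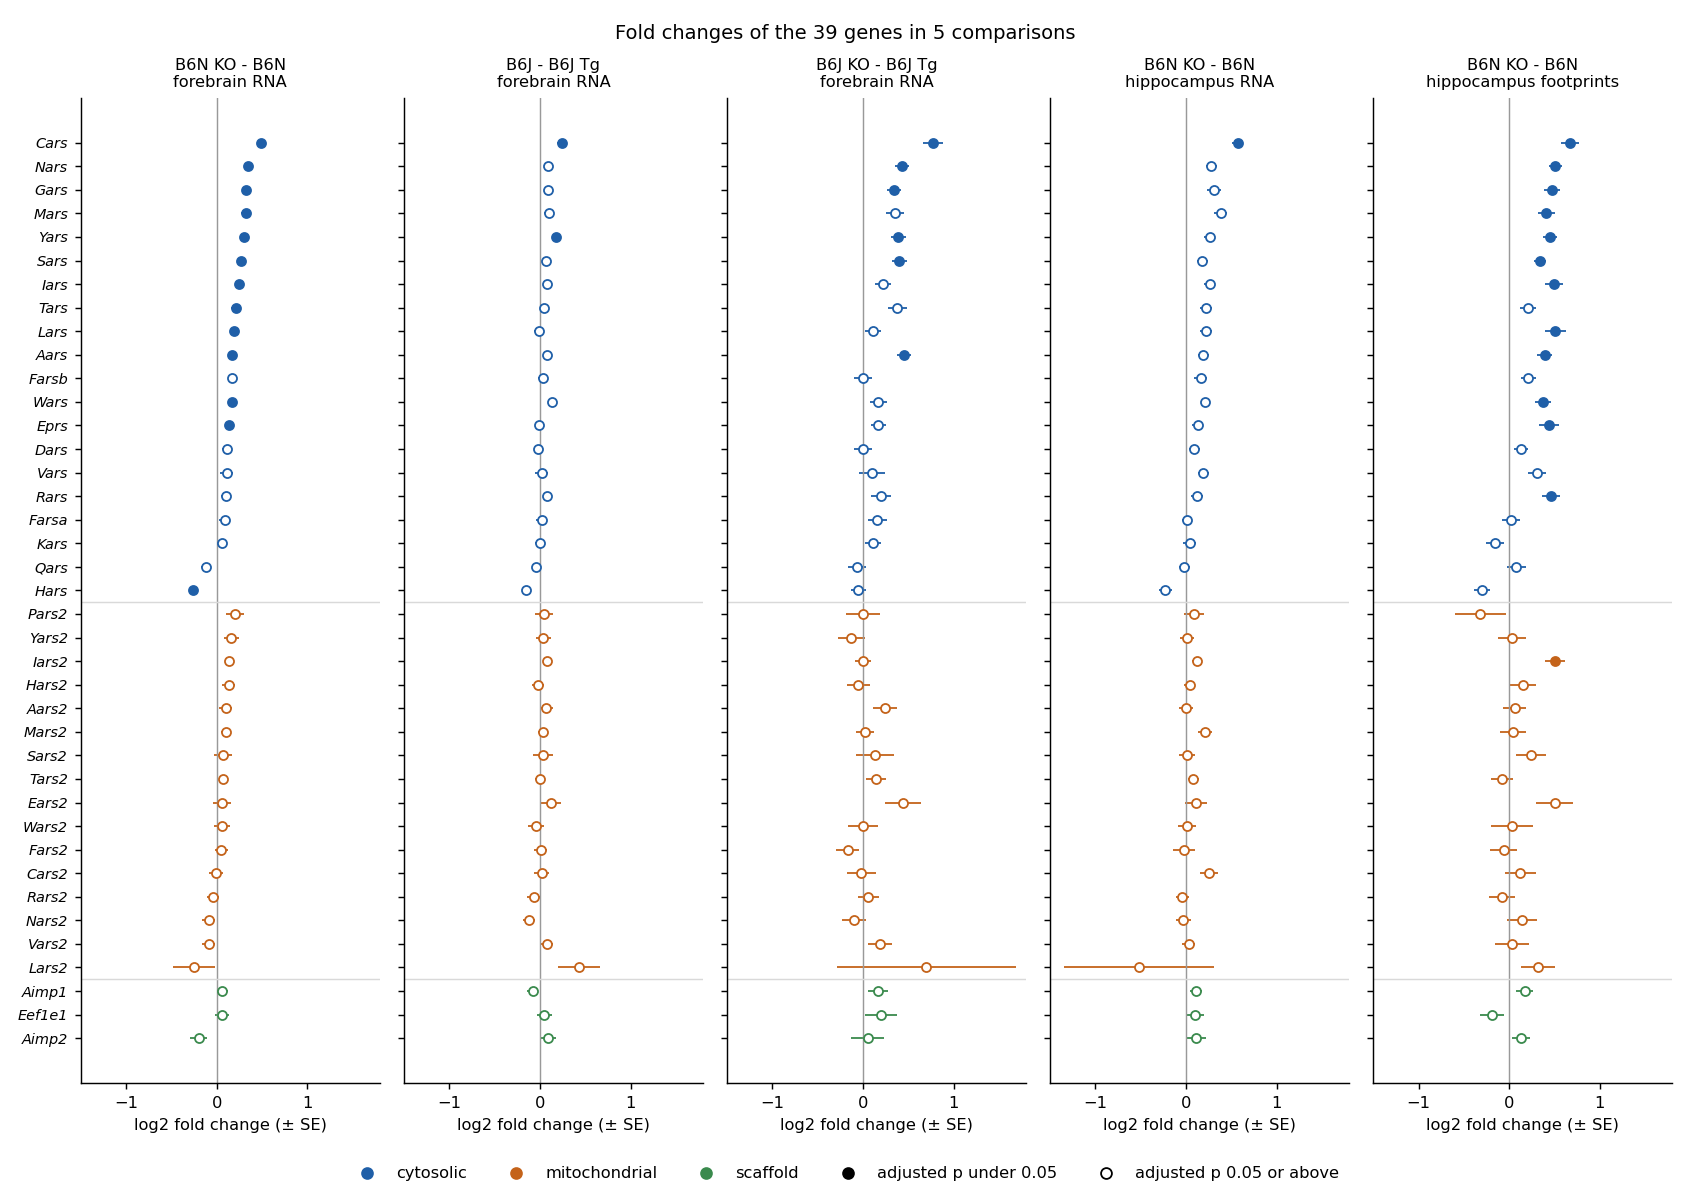
Log2 fold changes with SE of the 39 genes in 5 comparisons, ordered within each class by the B6N knockout forebrain; filled points have an adjusted p under 0.05. In that panel 12 cytosolic genes are filled to the right of 0, Hars is filled at -0.26 and no mitochondrial or scaffold point is filled.

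Hars (ENSMUSG00000001380.6, chromosome 18), the histidine enzyme, was the gene that fell. It stood at 65.4, 65.6, 65.6 and 63.4 CPM in B6N and 51.7, 56.8, 55.4 and 53.6 CPM in the knockout, all 4 knockout libraries lying below all 4 of B6N. Its log2 fold change was -0.26 ± 0.04 (adjusted p = 0.000253), and it was called in all 8 fits that left out 1 library. The forebrain annotation holds a single transcript of Hars. Its annotated span overlaps at an edge with that of Hars2, the mitochondrial histidine enzyme, which had a log2 fold change of 0.13 ± 0.07 (adjusted p = 0.435). Qars, the glutamine enzyme, was the other cytosolic gene with a negative value (-0.12 ± 0.05, adjusted p = 0.23).

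Rars (ENSMUSG00000018848.4, chromosome 11 from 35808381 to 35834528), the cytosolic enzyme that charges arginine tRNAs including n-Tr20, was not called. It stood at 29.6, 31.6, 31.4 and 31.8 CPM in B6N and 30.5, 32.8, 36.3 and 34.0 CPM in the knockout, with overlap between the groups (log2 fold change 0.10 ± 0.05, adjusted p = 0.418). Rars2 (ENSMUSG00000028292.14, chromosome 4 from 34614957 to 34660167), its mitochondrial counterpart, was at 13.7, 14.5, 14.3 and 13.6 CPM and 13.6, 12.9, 13.6 and 14.7 CPM (-0.04 ± 0.07, adjusted p = 0.881).

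Kars, the lysine enzyme of both compartments and a complex member, was at 48.3, 51.3, 45.7 and 46.7 CPM in B6N and 48.7, 53.3, 50.1 and 48.0 CPM in the knockout (0.06 ± 0.05, adjusted p = 0.685). Of its TPM in B6N, 63.5% was assigned to Kars-201 and 22.0% to Kars-202, its 2 leading coding transcripts. Of the 8 enzymes of the complex, 4 rose (Eprs, Iars, Lars and Mars; median log2 fold change 0.13), and of the 12 enzymes outside it 8 rose and 1 fell (median 0.19). The remaining cytosolic genes, Dars, Farsa, Farsb and Vars, had values of 0.09 to 0.17, with Farsb, a subunit of the phenylalanine enzyme, nearest to the threshold (adjusted p = 0.0513, called by DESeq2).

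No mitochondrial gene was called (edgeR; 2 of 16 at an unadjusted p under 0.05, with 12.7% of all genes, and none called by DESeq2). Iars2, the mitochondrial isoleucine enzyme, had the lowest p of the class, at 53.4, 56.0, 51.9 and 54.3 CPM in B6N and 59.8, 54.3, 62.8 and 61.3 CPM in the knockout (0.14 ± 0.04, adjusted p = 0.103), and it was called without B6N knockout 2. Among the scaffolds, Aimp2 was at 10.2, 10, 10.7 and 10.5 CPM in B6N and 8.13, 9.2, 9.21 and 9.46 CPM in the knockout (-0.20 ± 0.09, adjusted p = 0.323). Aimp1, at 26.6, 23.8, 25.0 and 25.1 CPM and 25.1, 27.6, 27.4 and 24.5 CPM, and Eef1e1, at 11.9, 10.9, 10.7 and 12.5 CPM and 11.6, 12.6, 11 and 12.9 CPM, each had a log2 fold change of 0.06. Aimp2 did not overlap between the genotypes and the other 2 scaffolds did.

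**Figure D4:**
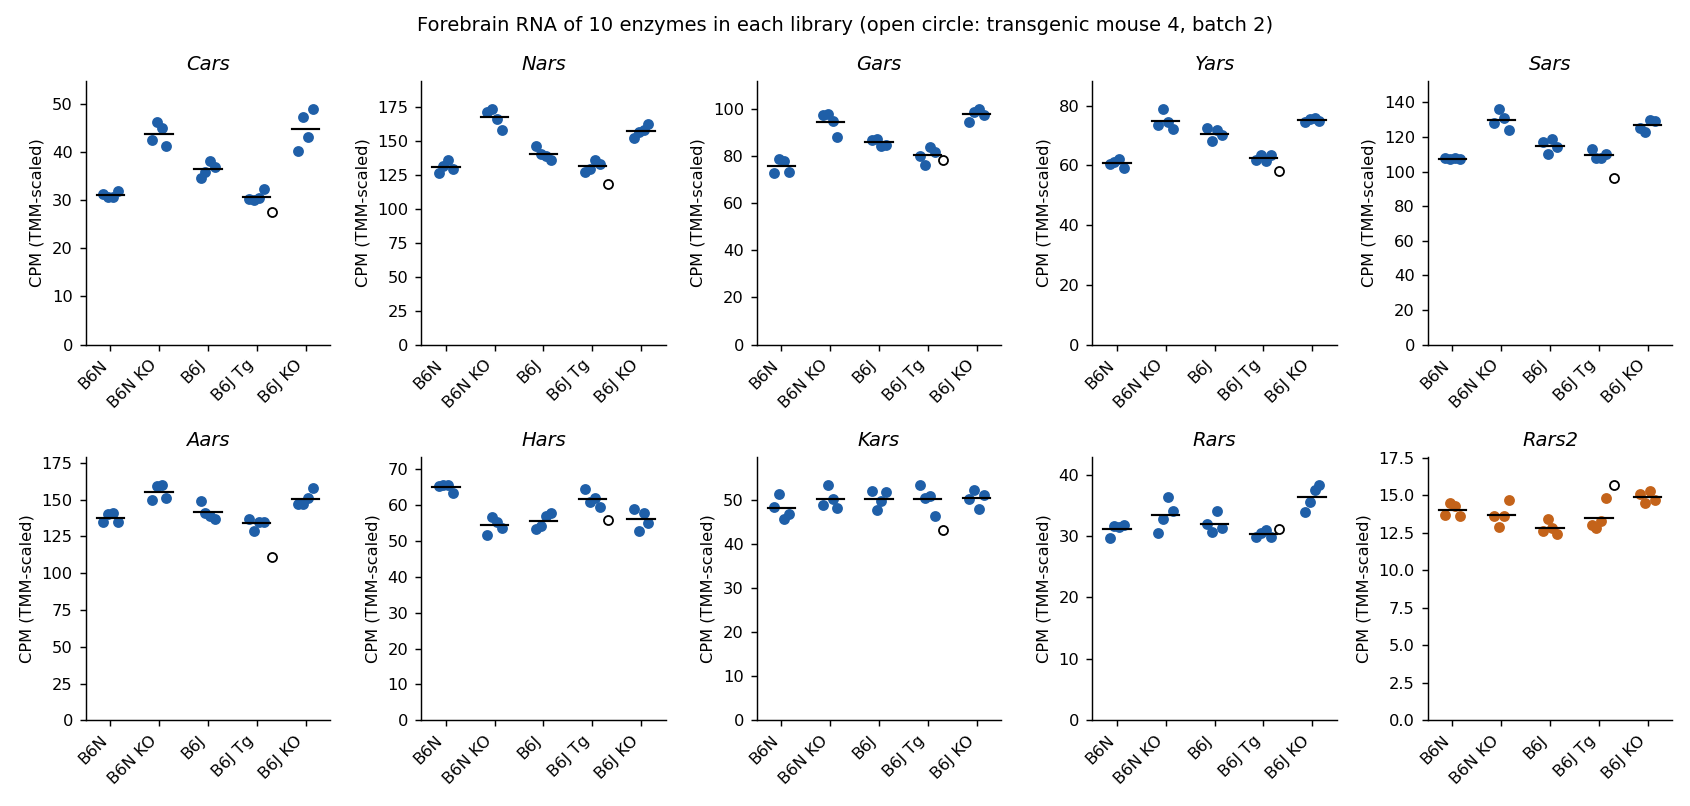
CPM of 10 enzymes in each forebrain library by group; filled points are mice, bars are group means, and the open circle is the batch 2 library of transgenic mouse 4. Cars runs from 30.1 to 32.3 CPM in B6N and B6J transgenic mice, from 34.6 to 38.2 CPM in B6J and from 40.2 to 48.9 CPM in both knockouts, while Hars is highest in B6N and the transgenic mice.

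Low n-Tr20 was compared with restored n-Tr20 within B6J. Cars stood at 34.6, 35.9, 38.2 and 37.0 CPM in B6J and 30.3, 30.1, 30.4 and 32.3 CPM in B6J transgenic mice, and rose without overlap (log2 fold change 0.24 ± 0.05, adjusted p = 0.0205). Yars, at 72.6, 68.1, 71.9 and 70.1 CPM and 61.8, 63.6, 61.4 and 63.6 CPM, rose as well (0.18 ± 0.04, adjusted p = 0.042). These were the 2 of 39 genes called higher in B6J, compared with 0.171% of all genes, 0.0795% being called lower and 0.25% in either direction (edgeR's quasi-likelihood test). Hars, at 53.3, 54.3, 56.9 and 57.9 CPM in B6J and 64.5, 60.9, 62.1 and 59.4 CPM in transgenic mice, did not overlap but did not pass (-0.15 ± 0.04, adjusted p = 0.126). Every B6J library was above every transgenic library in 5 of the 39 genes, and every one was below in 1. Over all genes these shares were 2.58% and 2.47%.

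Both calls depended on single libraries. Cars was not called without B6J mouse 2, 3 or 4 or transgenic mouse 3, with a highest adjusted p of 0.106, and Yars was called in 1 of 8 such fits, with a highest adjusted p of 0.147. With the transcript length offset, and in a fit of the 8 libraries compared, neither was called. Rars was at 31.9, 30.6, 34.0 and 31.3 CPM in B6J and 29.8, 30.5, 31.0 and 29.9 CPM in transgenic mice (0.08 ± 0.05, adjusted p = 0.676), and Rars2 at 12.6, 13.4, 12.8 and 12.4 CPM and 13, 12.8, 13.3 and 14.8 CPM (-0.07 ± 0.07, adjusted p = 0.779).

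B6J was also set against B6N, which it shares with the first comparison as the reference, so the values are given side by side. Cars, Yars and Gars were higher in B6J (log2 fold changes 0.22, 0.22 and 0.18) and Hars lower (-0.23 ± 0.04, adjusted p = 0.00206), 4 of 39 genes against 1.73% of all genes, 1.21% of them higher and 0.513% lower (edgeR). Gars was at 86.8, 87.2, 84.4 and 84.7 CPM in B6J, above all B6N libraries, a separation that 5.3% of all genes had. Its call ended in 3 of 8 fits without 1 library, and with the transcript length offset Hars alone was called. The 6 striatum markers also differed between these strains, summing to 407 to 450 CPM in B6J and 344 to 376 CPM in B6N, and their part in these results was not tested.

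B6J transgenic mice against B6N gave no call among the 39 genes (edgeR; 4 at an unadjusted p under 0.05, with 8.87% of all genes, none by DESeq2), while 0.366% of all genes were called. Cars had a log2 fold change of -0.02 ± 0.05 and Hars -0.07 ± 0.04. The 12 genes of the ATF4 list had a median of -0.01 and lay between -0.06 and 0.09.

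The effect of losing n-Tr20 in B6N and that of low n-Tr20 in B6J were compared directly. The difference of the 2 effects passed for none of the 39 genes, while 0.0596% of all genes passed, 0.0199% higher and 0.0398% lower (edgeR; 12 of the 39 at an unadjusted p under 0.05, with 8.19% of all genes, and Nars and Sars called by DESeq2). Nars came nearest, with a difference of 0.26 ± 0.05 (adjusted p = 0.0536), and Cars had one of 0.25 ± 0.07 (adjusted p = 0.209). All 12 genes of the ATF4 list had a positive difference, with a median of 0.18, as did 50.9% of all genes. They were also the 12 genes called higher in the B6N knockout. That effect enters this difference, so their sign is not independent evidence. Nars and Gars were called without B6N knockout 4, and Nars without B6J mouse 1 or without transgenic mouse 1.

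The B6J knockout was compared with the transgenic mice, that is, no n-Tr20 with the B6N form. Of the 39 genes 6 rose, all cytosolic and of the ATF4 list, and none fell, compared with 0.546% of 25481 genes higher and 0.738% in either direction (edgeR, with the batch difference set by transgenic mouse 4). Cars stood at 40.2, 47.3, 43.1 and 48.9 CPM in the knockout and at 30.3, 30.1, 30.4 and 32.3 CPM in the batch 1 transgenic libraries, mouse 4 giving 27.6 CPM in batch 2 (0.77 ± 0.11, adjusted p = 0.00039). Aars was at 147, 147, 151 and 158 CPM in the knockout and at 137, 129, 135 and 135 CPM, with 111 CPM in batch 2 (0.45 ± 0.08, adjusted p = 0.00314). The knockout libraries were above every transgenic library for both genes.

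Nars (152, 156, 158 and 162 CPM in the knockout, 127 to 136 CPM in batch 1 and 118 CPM in batch 2) rose by 0.43 ± 0.08 on the log2 scale (adjusted p = 0.00458). Sars (125, 123, 130 and 129 CPM, against 108 to 113 and 96.0 CPM) rose by 0.40 ± 0.08 (adjusted p = 0.00538). Yars (74.5, 75.5, 75.8 and 74.9 CPM, against 61.4 to 63.6 and 58.2 CPM) rose by 0.39 ± 0.08 (adjusted p = 0.00659), and Gars (94.6, 98.6, 99.8 and 97.4 CPM, against 76.2 to 83.6 and 78.5 CPM) by 0.34 ± 0.08 (adjusted p = 0.0455). These 4 genes did not overlap either. Every knockout library was above every transgenic library in 12 of the 39 genes, and every one was below in 0. Over all genes these shares were 4.36% and 3.33%.

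The size of these values rests in part on the pair of libraries of mouse 4, whose batch 2 library was lower than its batch 1 library by a log2 ratio of -0.28 for Aars and -0.23 for Cars. Within batch 2, the mean of the 4 knockouts exceeded the mouse 4 library by 0.70 for Cars and 0.44 for Aars, and across batches without any correction by 0.54 and 0.17. All 4 knockouts were above the batch 2 transgenic library in 12 of the 12 genes of the ATF4 list (median 0.38). This held in 4 of the other 8 cytosolic genes (median 0.14) and 5 of 16 mitochondrial genes (median 0.06), compared with 24.7% of all genes (median 0.00). The list was chosen with earlier results of these data known, so this split is not independent evidence. It also rests on 1 transgenic library. With mouse 4 treated as an ordinary mouse 12 of the 39 genes were called, together with 1800 of all genes against 188. With the transcript length offset 3 were called (Aars, Nars and Sars), and 67 of all genes.

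Knockouts 1 to 3 were female, and all 4 had the higher choroid plexus marker sums given above, with all 8 markers detected in each of the 4. A fit with the male knockout 4 alone takes its spread from the other groups, assuming that this library varies as they do, and its batch term from mouse 4, and called 96 of all genes. In it Aars, Cars, Nars and Sars were called (Cars 0.90, adjusted p = 4.12e-05), while Yars (adjusted p = 0.0512) and Gars (0.154) were not. The call of Gars also ended without knockout 2 or 4, without the filter on low counts (adjusted p = 0.127, edgeR), without robust estimation (0.0651) and with the transcript length offset (0.152). The part of choroid plexus in these results was not tested. Hars was at 58.9, 52.7, 57.8 and 54.9 CPM in the B6J knockout and had a log2 fold change of -0.05 ± 0.08 (adjusted p = 0.886).

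The arginine enzymes did not pass in this comparison. Rars was at 33.9, 35.6, 37.5 and 38.3 CPM in the B6J knockout, above every transgenic library, with a log2 fold change of 0.20 ± 0.11 (adjusted p = 0.491). Rars2 was at 15.1, 14.5, 15.3 and 14.7 CPM, with 15.7 CPM in transgenic mouse 4 in batch 2 (0.06 ± 0.12, adjusted p = 0.907). Mars (0.35 ± 0.10, adjusted p = 0.105) and Tars (0.38 ± 0.10, adjusted p = 0.0706) did not pass. Among the scaffolds, Aimp1 was at 27.1, 25.5, 28.2 and 27.6 CPM in the B6J knockout and 24.7, 25.1, 25.4 and 24.7 CPM in batch 1 transgenic libraries, with 23.7 CPM in batch 2 (0.17 ± 0.11, adjusted p = 0.601). Aimp2 (7.94 to 10.7 CPM in the knockout, 7.86 to 9.81 CPM in batch 1 transgenic libraries) and Eef1e1 (10.1 to 14.6 CPM, against 10.6 to 12.3 CPM) overlapped.

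Against B6J itself, of the same strain and with hypomorphic n-Tr20, no gene of the 39 passed, and 0.106% of all genes did, 0.0903% higher and 0.0157% lower (edgeR; 8 at an unadjusted p under 0.05, with 8.02% of all genes, and Aars, Cars, Nars and Sars by DESeq2). Cars had a log2 fold change of 0.53 ± 0.12 (adjusted p = 0.0788) and was called without B6J knockout 1, and Aars had one of 0.37 ± 0.09 (adjusted p = 0.102) and was called without B6J mouse 1. Striatum markers summed to 304 to 394 CPM in the B6J knockout and 407 to 450 CPM in B6J. Their part in these results was not tested. The B6J knockout effect over transgenic mice and the B6N knockout effect differed for none of the 39 genes, and for 0.243% of all genes, 0.0746% of them lower (edgeR; 3 at an unadjusted p under 0.05, with 10.1% of all genes, Aars alone by DESeq2). Aars had the lowest p among them (difference 0.28 ± 0.09, adjusted p = 0.174), and Hars, at -0.26 in B6N and -0.05 in B6J, differed by 0.21 ± 0.09 (adjusted p = 0.439).

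In hippocampus RNA the same knockout gave 1 call among the 39 genes, Cars, compared with 0.0413% of 19352 genes, 0.031% higher and 0.0103% lower, and 15 of the 39 had an unadjusted p under 0.05, as did 7.94% of all genes (edgeR). Cars was at 36.8, 35.4 and 37.8 CPM in B6N and 53.4, 53.4 and 56.2 CPM in the knockout, with no overlap (log2 fold change 0.57 ± 0.06, adjusted p = 0.0123). DESeq2 called 4 genes, Cars, Mars, Nars and Yars, and so did edgeR without the filter on low counts, with Gars in place of Yars. Over all genes these fits called 138 of 19352 and 135 of 35477, against 8 here. The edgeR call ended without any of the 3 B6N libraries in turn and without knockout 3, with a highest adjusted p of 0.104.

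Mars was the gene with the next lowest p, and was at 49.2, 51.2 and 50.6 CPM in B6N and 70.8, 62.8 and 62.3 CPM in the knockout (0.38 ± 0.07, adjusted p = 0.177). Hars was at 86.5, 76.6 and 82.4 CPM and 69.7, 73.2 and 65.9 CPM, the knockout libraries lying below those of B6N (-0.23 ± 0.07, adjusted p = 0.408). Every knockout library was above every B6N library in 14 of the 39 genes, and every one was below in 1. Over all 19352 genes these shares were 7.0% and 7.4%. The ATF4 list was chosen with earlier results of these data known, so its median is not independent evidence. The median log2 fold change was 0.24 over the ATF4 list, 0.06 over the other 8 cytosolic genes and 0.02 over the mitochondrial genes, with 0.00 over all genes.

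Among these, Rars was at 45.3, 40.0 and 45.4 CPM in B6N and 45.3, 49.2 and 47.7 CPM in the knockout (0.12 ± 0.07, adjusted p = 0.721), so the groups met at their edges. Rars2, at 20.7, 18.8 and 18.5 CPM and 19.2, 18.7 and 18.7 CPM, gave -0.04 ± 0.07 (adjusted p = 0.939). Kars, at 66.5, 57.0 and 64.7 CPM and 61.9, 66.2 and 64.6 CPM, gave 0.04 ± 0.07.

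The scaffolds overlapped between the genotypes in hippocampus RNA. Aimp1 was at 37.9, 33.4 and 36.7 CPM in B6N and 39.1, 40.4 and 37.0 CPM in the knockout (0.11 ± 0.07). Aimp2 was at 9.91, 9.89 and 10.4 CPM and 12.3, 10.4 and 9.92 CPM (0.11 ± 0.11), and Eef1e1 at 16.5, 13.4 and 15.2 CPM and 17.1, 15 and 16.2 CPM (0.10 ± 0.10). The 5 microglia markers summed to 230 to 256 CPM in B6N and 207 to 226 CPM in knockout RNA, and to 296 to 353 and 262 to 276 CPM in footprints, and their part in these results was not tested.

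Ribosome footprints, the RNA fragments that ribosomes protect, were compared between the same genotypes. Of the 39 genes 13 had more footprints in the knockout and none fewer, compared with 2.19% of 13227 genes higher, 3.16% lower and 5.35% in either direction (edgeR's quasi-likelihood test). They were 11 of the 12 genes of the ATF4 list, which was chosen with earlier results of these data known, Rars and the mitochondrial Iars2. The median log2 fold change was 0.38 over cytosolic, 0.05 over mitochondrial and 0.13 over scaffold genes, with 0.00 over all genes. In 18 of the 39 genes every knockout library was above every B6N library, compared with 12.9% of all genes. In 1, Hars, every knockout library was below, compared with 13.7% of all genes.

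Cars footprints stood at 50.1, 42.2 and 45.2 CPM in B6N and 71.8, 73.5 and 73.8 CPM in the knockout (0.67 ± 0.10, adjusted p = 0.00494). Nars was at 364, 338 and 326 CPM and 514, 490 and 465 CPM (0.51 ± 0.07, adjusted p = 0.00411), and Lars at 85.8, 65.3 and 62.1 CPM and 106, 96.2 and 101 CPM (0.51 ± 0.12, adjusted p = 0.0283). None of these overlapped. Iars2 was at 80.1, 64.8 and 74.6 CPM and 118, 97.9 and 92.7 CPM (0.50 ± 0.11, adjusted p = 0.0255), Iars at 84.3, 89.9 and 85.2 CPM and 135, 124 and 105 CPM (0.49 ± 0.10, adjusted p = 0.018), and Gars at 312, 246 and 257 CPM and 361, 376 and 391 CPM (0.47 ± 0.09, adjusted p = 0.0156).

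Rars, the arginine enzyme, had footprints at 83.9, 76.7 and 89.4 CPM in B6N and 123, 117 and 104 CPM in the knockout, without overlap (0.46 ± 0.10, adjusted p = 0.0199), or 1.38-fold. This was its only call in the 11 comparisons, and it ended in 4 of 6 fits without 1 library, with a highest adjusted p of 0.0866. Rars2 footprints, at 30.4, 23.8 and 28.2 CPM and 24.8, 24.7 and 28.4 CPM, overlapped (-0.08 ± 0.14, adjusted p = 0.77), and Rars2 was called in no comparison.

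Yars was at 140, 131 and 144 CPM and 200, 180 and 186 CPM (0.45 ± 0.08, adjusted p = 0.0126). Eprs, Mars, Aars, Wars and Sars gave 0.44, 0.41, 0.39, 0.37 and 0.34. Tars, at 67.5, 70.2 and 69.5 CPM and 84.0, 82.2 and 73.5 CPM, was the gene of the ATF4 list that did not pass (0.21 ± 0.09, adjusted p = 0.204). Hars was at 168, 160 and 147 CPM in B6N and 121, 126 and 140 CPM in the knockout, without overlap (-0.30 ± 0.09, adjusted p = 0.0687). Over all genes, 13.7% lay wholly below B6N in the same way.

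Of the genes of both compartments, Gars rose and Kars did not pass, at 93.4, 91.9 and 107 CPM and 79.0, 88.6 and 94.8 CPM (-0.16 ± 0.10, adjusted p = 0.386). Aimp1 was at 86.2, 82.8 and 92.9 CPM and 104, 99.4 and 91.4 CPM (0.17 ± 0.09). Aimp2, at 57.7, 61.9 and 57.0 CPM and 61.7, 65.7 and 66.3 CPM, gave 0.13 ± 0.10, and Eef1e1, at 40.5, 37.8 and 36.2 CPM and 29.5, 31.7 and 39.8 CPM, gave -0.19 ± 0.13. All 3 scaffolds overlapped between the genotypes.

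The footprint calls depended on the libraries. The count of 13 fell to 1 (Nars) without B6N library 3, to 3 without B6N library 2, to 2 without knockout library 2 and to 6 without knockout library 1, the library with less Y-linked RNA, while it was 12 without B6N library 1 and 14 without knockout library 3. Calls over all genes moved from 708 to 32, 152, 59, 264, 916 and 789 in the same order. No log2 fold change of the 13 genes was under 0.29 in any of these fits. Choroid plexus markers summed to 6030 to 13300 CPM in B6N footprints and 8040 to 18400 CPM in those of the knockout. Striatum markers summed to 62.8 to 72.3 CPM in B6N and 82.3 to 160 CPM in the knockout, astrocyte markers to 1560 to 1670 and 1400 to 1530 CPM, and markers of meninges and vessels to 227 to 289 and 289 to 378 CPM. The part of these lists in the footprint results was not tested.

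A change in footprints can follow from a change in RNA, so the ratio of both, translational efficiency, was tested as the interaction of assay and genotype. None of the 39 genes passed, and none of 15202 genes did (edgeR, 0%). At an unadjusted p under 0.05 there were 3 of the 39, with 14.8% of all genes. DESeq2 called none of the 39 and 494 of all genes. Over all genes, edgeR called 301 without B6N footprint library 1, 285 without knockout footprint library 3 and 38 without the filter on low counts, and none of the 39 in any of these fits. Rars and Iars2 had the lowest p, with 0.31 ± 0.12 (adjusted p = 0.245) and 0.35 ± 0.14 (adjusted p = 0.252), followed by Nars (0.21 ± 0.09, adjusted p = 0.315). Cars had 0.08 ± 0.11 and Hars -0.09 ± 0.11.

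**Figure D5:**
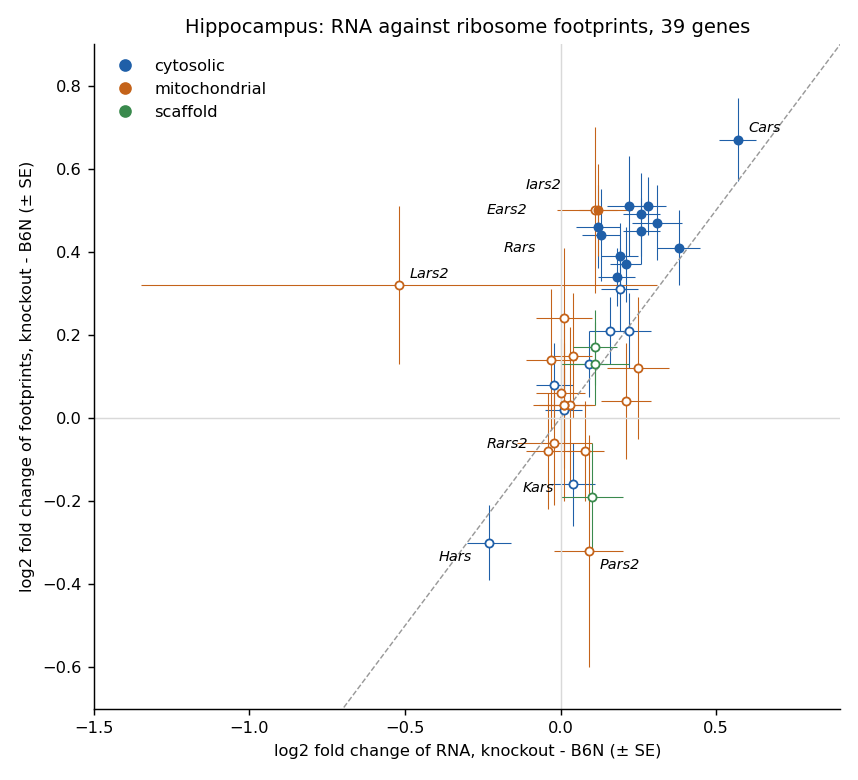
Log2 fold changes, knockout minus B6N, of hippocampus footprints against those of hippocampus RNA for the 39 genes, with SE bars; filled points passed in footprints and the dashed line marks equal changes. Cars lies at 0.57 and 0.67, Hars at -0.23 and -0.30, and Rars at 0.12 and 0.46.

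The level of footprints relative to RNA in B6N hippocampus was described by class. The log2 ratio of CPM had a median of 0.68 over the 20 cytosolic genes, -0.26 over the 16 mitochondrial genes and 1.31 over the 3 scaffolds, against -0.18 over 15202 genes. All 20 cytosolic genes and all 3 scaffolds were above that median, as were 7 mitochondrial genes. Cytosolic values ran from 0.19 for Iars to 1.51 for Dars, the aspartate enzyme. Aimp2 had the highest ratio, 2.49, higher than 99.2% of genes.

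Among mitochondrial genes, Yars2 (1.01) and Fars2 (0.78) were highest and Lars2, whose RNA level is uncertain as described above, was lowest (-4.10). The arginine enzymes stood at 0.93 (Rars) and 0.50 (Rars2), higher than 88.3% and 76.2% of genes. The RNA and footprint libraries were made by different protocols and were taken here as separate batches. Footprints lie within coding sequence while RNA counts span whole transcripts, so the ratio is a description of these libraries.

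Other genes of tRNA charging were taken from a list of 15, among them the cytosolic paralogue Tarsl2, the amidotransferase subunits Gatb, Gatc and Qrsl1, editing and deacylation factors, the selenocysteine enzymes Sepsecs and Pstk, and the tRNA exporter Xpot. None of the 15 passed in the B6N knockout forebrain (edgeR; 6 at an unadjusted p under 0.05, with 12.7% of all genes, median log2 fold change 0.05). In footprints, where 14 were tested, Xpot was higher (0.38 ± 0.09, adjusted p = 0.0348) and Pstk lower (-0.88 ± 0.21, adjusted p = 0.0279). Of all genes 2.19% were called higher there and 3.16% lower. Whether these 2 calls held with 1 library left out was not checked, and calls over all genes then fell as low as 32. None of the 15 was called in the other 9 comparisons.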

How the data were processed

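Forebrain RNA depleted of ribosomal RNA (21 libraries of 20 mice), poly(A)-selected hippocampus RNA (6) and hippocampus ribosome footprints (6) were analysed. For forebrain, the authors deposited estimated counts and TPM per transcript, per the file headers. For hippocampus, the deposited files hold whole counts per gene. Per the submitters' processing notes, the tools were featureCounts, Bowtie2 2.2.3, kallisto 0.42.4 and HISAT2 2.1.0, with build mm10 and no roles stated.

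Estimated counts were summed per gene identifier and rounded, and TPM was summed per gene. Each comparison was fitted over all genes with edgeR 4.0.16 in R 4.3.3 (TMM scaling, filterByExpr with a minimum count of 10, robust quasi-likelihood F-test) and adjusted by Benjamini-Hochberg, with calls at an adjusted p under 0.05. The 16 forebrain libraries of batch 1 shared a fit, and B6J knockout comparisons used all 21 libraries with batch as a term, set by the transgenic mouse sequenced in both. Translational efficiency was the assay by genotype interaction. CPM values are TMM-scaled. Footprints over RNA used a pseudocount of 0.5 CPM. The code was tested on simulated data. Alternatives were DESeq2 1.42.0, other scaling, no filter, non-robust estimation, a transcript length offset, a replicate block, fewer libraries and the handling of transgenic mouse 4. Depth bounds precision for low genes, since the lowest count of a synthetase was 41. Replicates of a group differed beyond counting noise, with a chi-square over degrees of freedom of at least 2.92. Genes named were the 39 members, listed pathway genes and mt-Rnr2, and 1 listed gene is not reported here by name. The members and lists were chosen with earlier results of these data known.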

Additional observations from a re-analysis of the deposited data

Results flagged for a closer look

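In 8 of 195 sets of 4 forebrain libraries, 1 per gene and group, the highest or lowest library stood apart from the other 3 by more than Dixon's critical value. Chance gives about 1 in 20 such sets. Transgenic mouse 4 had 32.3 CPM of Cars (others 30.1 to 30.4), and transgenic mouse 3 had 39.8 CPM of Dars (others 36.5 to 36.8). B6J mouse 2 had 112 CPM of Eprs (others 121 to 122). In B6N, mouse 4 had 63.4 CPM of Hars (others 65.4 to 65.6) and 25.7 CPM of Tars2 (others 28.2 to 28.7), mouse 1 had 29.6 CPM of Rars (others 31.4 to 31.8), and mouse 3 had 13.7 CPM of Cars2 (others 13 to 13.1). B6N knockout 2 had 8.26 CPM of Sars2 (others 6.30 to 6.61).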

How the results depend on the processing

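No gene called in a main fit reversed its direction under any alternative run. Rars, Rars2, Gars, Kars and the 3 scaffolds did not reverse while called either. Other genes called only under an alternative were not checked for direction. With an offset for transcript length, the genes called numbered 7 in the B6N knockout forebrain, 0 in B6J against transgenic mice, 1 in B6J against B6N and 3 in the B6J knockout against transgenic mice. B6J against transgenic mice gave 1 call without the filter on low counts, 1 without robust estimation and 0 when fitted on its own libraries. DESeq2 called 2 genes for the difference of the B6N knockout and B6J effects, where edgeR without the filter called 1, and 4 for the B6J knockout against B6J, 1 for the difference of the knockout effects and 4 in hippocampus RNA, where edgeR without the filter also called 4. Treating transgenic mouse 4 as an ordinary mouse gave 12, 4 and 2 calls for the B6J knockout against transgenic mice, against B6J and against the B6N knockout effect, with 1800, 297 and 758 of all genes called against 188, 27 and 62. The male B6J knockout alone, whose spread is taken from the other groups, gave 1 call against B6J. In no comparison did every same-numbered pair of libraries correlate over 0.1 in its deviations (-0.11 to 0.04 in the B6N knockout forebrain, -0.35 to 0.12 in hippocampus RNA), so the numbers were not taken to pair them. B6N hippocampus RNA and footprints came nearest, at 0.09 to 0.15 for the same number and -0.15 to 0.08 for others. The replicate block gave 1 call in B6J against transgenic mice and 0 in hippocampus RNA, and moved no other count of the 39 genes by over 1.5 times. For translational efficiency it called 7 of all genes and none of the 39. The narrowest motif, TGATGCAAT, was held by 2 genes in place of 5. Leaving out 1 library gave 9 to 14 calls in the B6N knockout forebrain, 0 to 2 in B6J against transgenic mice, 3 to 4 in B6J against B6N, 0 to 2 for the difference of the B6N knockout and B6J effects, 5 to 8 and 0 to 1 for the B6J knockout against transgenic mice and B6J, 0 to 0 for the difference of the knockout effects, 0 to 1 in hippocampus RNA and 1 to 14 in footprints. The B6J knockout fits could not be fitted without the batch 1 library of transgenic mouse 4. Except where a library's absence itself reduces the samples, the cause was not tested.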
